A study of Mus musculus with 12 samples.

Results

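The genes described here encode the collagens, the laminins, fibronectin and the integrins, taken as every protein-coding gene of the count table whose symbol has the form of a collagen chain (Col, number, a, number), a laminin chain (Lama, Lamb or Lamc with a number) or an integrin subunit (Itga or Itgb with a number), together with Fn1 and Itgav. This rule gave 76 genes of the 57278 in the table, of which 21700 are protein-coding: 44 collagen chains, 11 laminin chains, fibronectin, 12 integrin alpha subunits and 8 integrin beta subunits. Expression was measured by RNA sequencing in 3 DDKC lines, named DDKC_9750, DDKC_9790 and DDKC_9804, which are mouse pancreatic tumor cell lines that are Dkk3-/- and carry Ptf1a Cre/+. Both conditions share this genotype, so all cells lacked Dkk3, a secreted Dickkopf-family glycoprotein, and carried a Cre under the pancreas-specific Ptf1a promoter. The untreated group is the line grown in serum-containing DMEM, and the rDKK3 group is the same line given recombinant DKK3 protein. The concentration used for the RNA samples is not given in the sources used here. Each line and condition has 2 libraries, 12 in all. The cells were grown without the fibroblasts, vessels and immune cells of a tumor, and the sources used here do not say whether a line is clonal or how many separate cultures were sequenced.

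Collagens are trimers of alpha chains with a triple helix. Fibrillar collagens build the rope-like interstitial matrix, type IV and XVIII collagens sit in the sheet-like basement membrane, and type VII collagen forms the anchoring fibrils beneath it. Laminins are cross-shaped trimers of 1 alpha, 1 beta and 1 gamma chain: laminin-511 (Lama5, Lamb1, Lamc1) is a form on which epithelia rest, and Lama3 and Lamb3 encode chains of other epithelial laminins. Fibronectin is a dimeric glycoprotein that cells assemble into fibrils. Integrins are receptors of 1 alpha and 1 beta subunit that bind these proteins outside the cell and the actin or keratin skeleton inside it. The pairing sets the ligand: alpha2 with beta1 binds collagen, alpha3 and alpha6 bind laminin, alpha5 and alphav recognize the RGD motif of fibronectin and related proteins, and alpha6 with beta4 anchors hemidesmosomes. Pancreatic ductal tumors are known for a dense collagen-rich stroma, most of which is made by fibroblasts and stellate cells.

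Sequence is given for 4 stretches upstream of transcription starts: those of Col7a1, the member with the smallest p-value for rDKK3, Col8a1, the member that differed most between lines, and Itga2, the member with the smallest p-value for a response that differed between lines, and the 71 bases between the starts of the head-to-head neighbours Col4a4 and Col4a3. They were chosen after the values were seen and come from RefSeq on GRCm38.p6, in which 55 of the 76 members had a start window. The first is chr9:108953336-108953585 (plus strand), the second chr16:57754738-57754987 (minus), the third chr13:114932101-114932350 (minus) and the last chr1:82586850-82586920, read on the minus strand of Col4a4. As printed, the last stretch begins beside the start of Col4a3 and ends beside that of Col4a4. Each of the first 3 holds the 250 bases before the start, 5′ to 3′. Capitals mark matches on either strand to the 5 motifs searched. These were the AP-1 motif spelled TGANTCA, the STAT motif spelled TTCNNNGAA, the GC box spelled GGGCGG, the CCAAT box spelled with those letters, and the TATA box spelled TATAAA. No 2 matches overlapped.
Col7a1: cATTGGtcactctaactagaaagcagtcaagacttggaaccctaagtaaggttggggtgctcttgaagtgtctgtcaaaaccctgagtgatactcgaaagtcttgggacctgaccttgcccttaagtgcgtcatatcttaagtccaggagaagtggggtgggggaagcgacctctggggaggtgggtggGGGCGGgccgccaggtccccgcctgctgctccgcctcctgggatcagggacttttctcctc
Col8a1: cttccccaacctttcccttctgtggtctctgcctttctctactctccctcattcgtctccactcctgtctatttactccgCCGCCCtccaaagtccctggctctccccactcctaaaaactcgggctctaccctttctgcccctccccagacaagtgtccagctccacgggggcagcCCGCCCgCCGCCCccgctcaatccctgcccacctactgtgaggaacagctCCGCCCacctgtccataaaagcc
Itga2: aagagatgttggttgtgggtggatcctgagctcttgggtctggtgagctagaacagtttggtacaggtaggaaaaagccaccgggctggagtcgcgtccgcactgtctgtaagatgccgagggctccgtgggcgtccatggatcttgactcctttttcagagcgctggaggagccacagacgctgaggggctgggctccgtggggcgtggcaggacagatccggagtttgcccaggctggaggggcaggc
Col4a4 to Col4a3: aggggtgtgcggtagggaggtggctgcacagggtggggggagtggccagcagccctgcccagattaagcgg
The Col7a1 stretch held 1 GC box and 1 CCAAT box, the Col8a1 stretch held 4 GC boxes, and the other two held no match. Over all 32851 windows of 250 bases, 32.7% had a GC box, 33.8% a CCAAT box, 12.4% a TATA box, 7.02% the STAT motif and 6.75% the AP-1 motif, so the GC box and the CCAAT box are each found in many starts. In windows of 71 bases these shares were 20.7%, 13.3%, 4.41%, 1.68% and 1.86%.

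Levels are given as CPM, the counts of a gene scaled to the sample's total after TMM scaling. Library totals ranged from 7520741 to 24541083 in untreated and from 3822987 to 11567095 in rDKK3-treated cells, and in DDKC_9750 and DDKC_9804 both treated libraries were shallower than both untreated ones. Dkk3 itself had 0 counts in every library but 1, which had 1 count. Apart from a shift shared by all lower-numbered against all higher-numbered libraries, both libraries of a line and condition agreed within sampling noise. They were summed and counted as 1 sample, giving n = 3 lines per condition, and p-values measure only the spread between these samples. A floor of 3 counts in a summed sample corresponds to between 0.0856 and 0.291 CPM, and values at or below it cannot be told from 0. This floor covers counting error only. In the text below, values are given for the untreated and then the rDKK3 sample of DDKC_9750, DDKC_9790 and DDKC_9804 in that order unless stated otherwise.

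DDKC cells expressed a small part of the matrix repertoire at high levels and much of it near 0. Of the 76 members, 40 had more than 3 counts in all 6 summed samples, 21 had at least 10 CPM in all of them and 14 at least 100 CPM, while 12 had at most 3 counts in every sample and 4 (Col6a5, Col6a6, Col13a1 and Lama1) had none. Filtering on low counts left 49 members for testing, among 15165 genes. The 27 members left out never exceeded 19 counts in a summed sample. They include Col1a2 and Col3a1, whose products belong to the main interstitial collagens of tumor stroma: Col1a2 had 3, 4, 3, 0, 0 and 0 counts, and Col3a1 had 16 counts in untreated DDKC_9804 and 0 elsewhere. Members together took 1.31% to 1.38% of all counts in the libraries of DDKC_9750, 1.52% to 1.68% in those of DDKC_9790 and 2.78% to 3.21% in those of DDKC_9804, without overlap between lines.

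**Figure D1:**
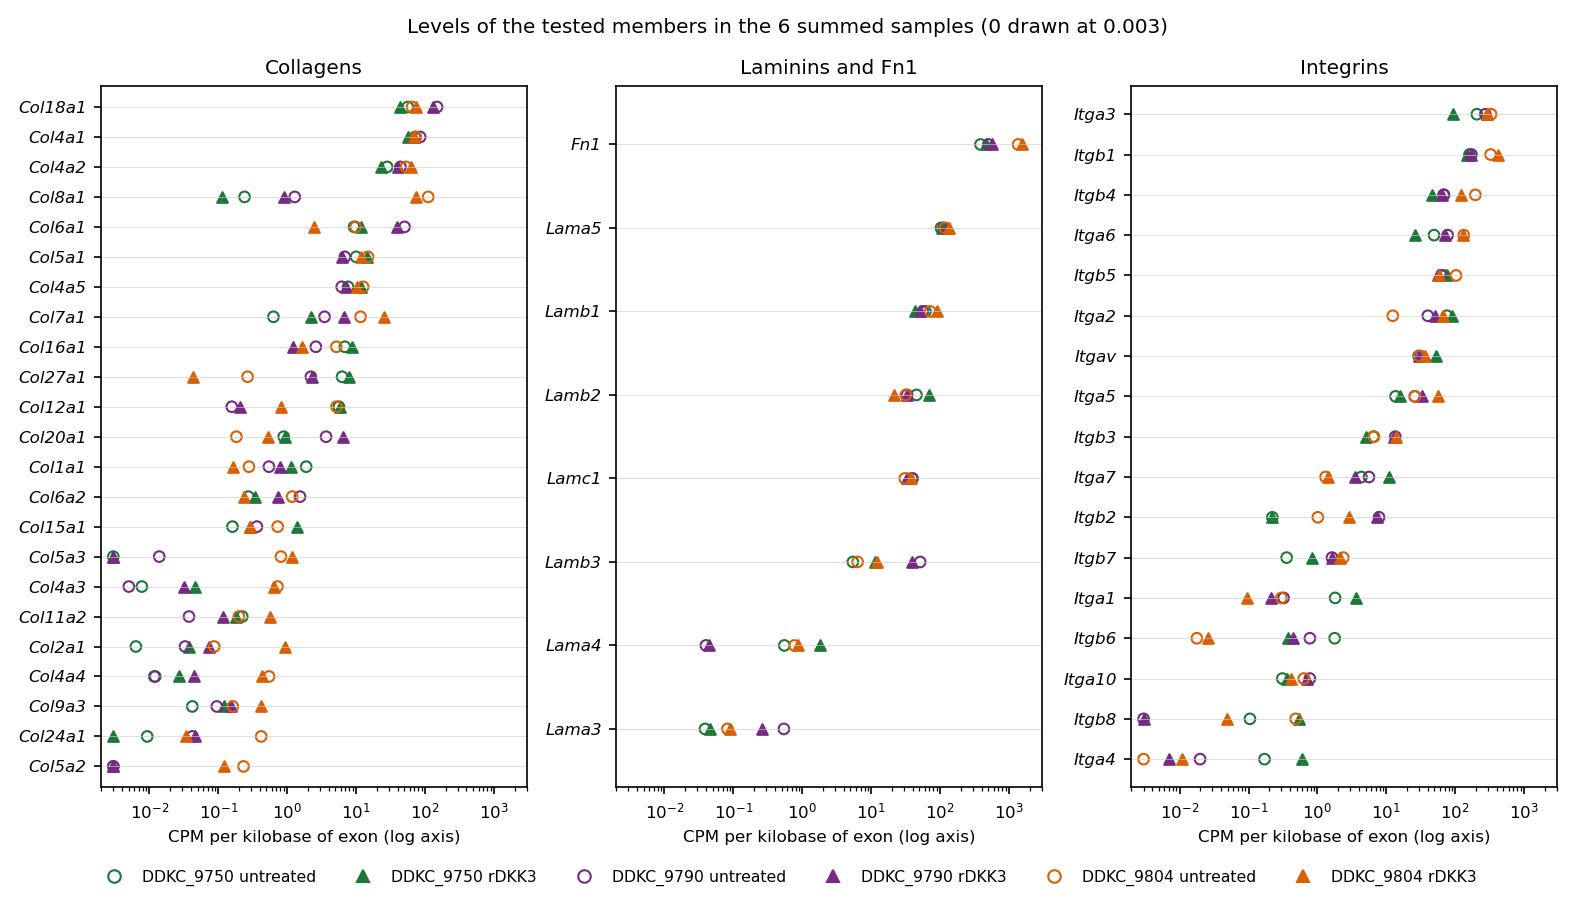
Levels of 48 tested members in the 6 summed samples, in CPM per kilobase of exon on a log axis, with collagens, laminins with fibronectin, and integrins in separate panels; colours mark lines, open circles untreated and filled triangles rDKK3-treated samples. Fn1 lies farthest right, with a mean of 801 CPM per kilobase, and the members at the bottom of each panel lie near or below the floor of 3 counts in at least 1 line.

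Fibronectin (Fn1, ENSMUSG00000026193.16, chromosome 1 of GRCm39, 71624679 to 71692359) was by far the most abundant transcript of the group. It measured 4867 and 5785 CPM in DDKC_9750, 6333 and 7266 in DDKC_9790, and 17130 and 19290 in DDKC_9804, each pair untreated and treated. DDKC_9804 was thus well above the others, and in each line both treated libraries were above both untreated ones. Fn1 alone accounted for 38.1% to 61.2% of all counts of the members, against 7.27% to 14.5% for the collagens, 8.26% to 18.2% for the laminins and 22.9% to 32.4% for the integrins. Per kilobase of exon, the scale on which levels of different genes can be compared, the mean over the 6 samples was 801 CPM for Fn1, 248 for Itga3, 233 for Itgb1, 116 for Lama5, 93.9 for Itgb4 and 86.5 for Col18a1, and no other member exceeded 81.3 (Itga6).

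Among the collagens, the basement membrane chains Col18a1 and Col4a1 had the highest mean level per kilobase of exon over the 6 samples (86.5 and 71.4 CPM), although Col8a1, described below, had more CPM than either in untreated DDKC_9804. Col18a1, whose product is a heparan sulfate-bearing collagen that yields endostatin, measured 384 and 298, 1023 and 888, and 443 and 510 CPM. Col4a1 and Col4a2, the ubiquitous chains of type IV collagen, averaged 508 ± 48.8 and 293 ± 87.8 CPM (SD, n = 3) in untreated cells. Col4a5 was lower, at 80.9 ± 31.2 CPM (SD, n = 3), and Col4a6 stayed within 7 counts in every sample. The most abundant fibrillar chain per kilobase was Col5a1, the nucleating chain of type V collagen, with 85.7 and 122, 58.9 and 53.2, and 128 and 101 CPM. Col1a1, the major chain of type I collagen, was at 11.2 and 6.70, 3.23 and 4.65, and 1.65 and 0.986 CPM, low in every line beside its near-absent partner chain Col1a2. Col16a1 had the highest mean per kilobase of the fibril-associated collagens, with 39.4 and 50.6, 14.96 and 7.08, and 29.7 and 9.36 CPM. None of the 4 transmembrane collagens passed the filter. The most abundant of them, the hemidesmosomal Col17a1, had between 3 and 5 counts in each sample.

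The laminin-511 chains were abundant, with ranges between line means of 0.26 for Lama5, 0.16 for Lamc1 and 0.65 for Lamb1 on the log2 scale. Lama5 measured 1178 and 1216, 1283 and 1438, and 1340 and 1526 CPM, Lamb1 between 283 and 591, and Lamc1 between 328 and 425. Lamb3 and Lama3 were lower and uneven. Lamb3 measured 36.5 and 76.4, 346 and 260, and 42.8 and 80.7 CPM. Lama3 reached only 0.499 and 0.583, 6.97 and 3.41, and 1.06 and 1.15 CPM. DDKC_9790 was the highest line for both of these chains in both conditions. Per kilobase of exon, Lamb3 exceeded Lama3 by between 77.5 and 251 times in the 6 samples, whereas Lama5 exceeded Lamc1 by between 2.63 and 3.82 times. Lama1 was at 0, Lamc3 had at most 2 and Lama2 at most 11 counts in a sample, and Lama4, a chain of vascular and mesenchymal laminins, ranged from 0.387 to 17.6 CPM.

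**Figure D2:**
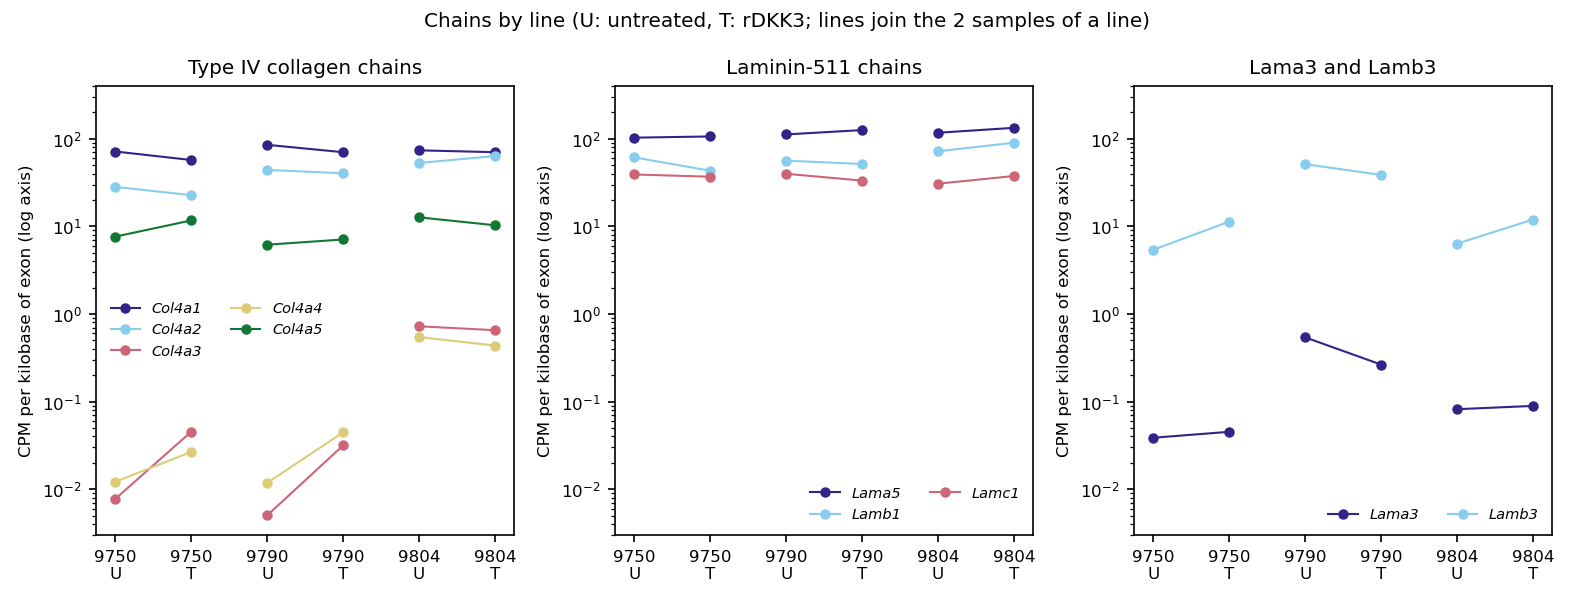
Chains of type IV collagen and laminin-511, and Lama3 with Lamb3, in the 6 summed samples, in CPM per kilobase of exon on a log axis; lines join the untreated (U) and rDKK3 (T) sample of a cell line. Lama5 and Lamc1 span 0.26 and 0.16 between line means on the log2 scale, Lama3 and Lamb3 are highest in DDKC_9790, and Col4a3 and Col4a4 are highest in DDKC_9804, with at most 9 counts in any sample of the other lines.

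Itgb1, the beta subunit shared by most matrix-binding integrins, measured 900 and 829, 962 and 942, and 1819 and 2361 CPM, and Itga3, its laminin-binding partner, 1098 and 500, 1459 and 1554, and 1765 and 1535 CPM. Itga6 and Itgb4, the pair of the hemidesmosome, measured 399 and 211, 628 and 581, and 1076 and 1050 CPM for Itga6, and 478 and 314, 469 and 450, and 1360 and 836 CPM for Itgb4. Both were highest in DDKC_9804. Itgav, the RGD-binding subunit with the highest level per kilobase, averaged 327 ± 8.72 CPM in untreated and 431 ± 131 CPM in treated cells (SD, n = 3). The untreated lines were thus nearly level, and the treated value of 576 CPM in DDKC_9750 stood above the rest. Itga2, the main collagen receptor subunit per kilobase, measured 538 and 632, 285 and 362, and 88.3 and 466 CPM. Itga8 had 1 count in all, Itga9 and Itga11 at most 8 in a sample, and Itga4, known from lymphocytes and other migrating cells, exceeded the floor in DDKC_9750 and in untreated DDKC_9790 only (2.59 and 9.13 CPM in DDKC_9750, 0.301 in untreated DDKC_9790).

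The design allows the lines to be compared with each other, with the untreated and treated sample of a line as its 2 samples. Of the 49 tested members, 31 (63.3%) differed between lines at an adjusted p under 0.05 (quasi-likelihood test of edgeR, p adjusted by Benjamini-Hochberg over every gene tested), against 35.3% of all 15165 genes. By family these were 16 of 23 collagens, 4 of 8 laminins, Fn1 and 10 of 17 integrins. The median range between the highest and the lowest line mean was 2.09 on the log2 scale for members and 0.76 for all genes, and 51% of members against 17.4% of all genes ranged over more than 4-fold. A member could pass the filter through a single line in which it is high, so these counts describe the tested members and are not read as a property of the family. Of the 31 called members, 15 were highest in DDKC_9804, 9 in DDKC_9750 and 7 in DDKC_9790, and 18 were lowest in DDKC_9750. These 18 include Col5a2, which had 0 counts in DDKC_9790 as well. No such counts over all genes stand beside them, so they are not read as particular to the members. Each line stands for 1 isolate, and passage and other history of a line cannot be told apart from its genotype background.

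**Figure D3:**
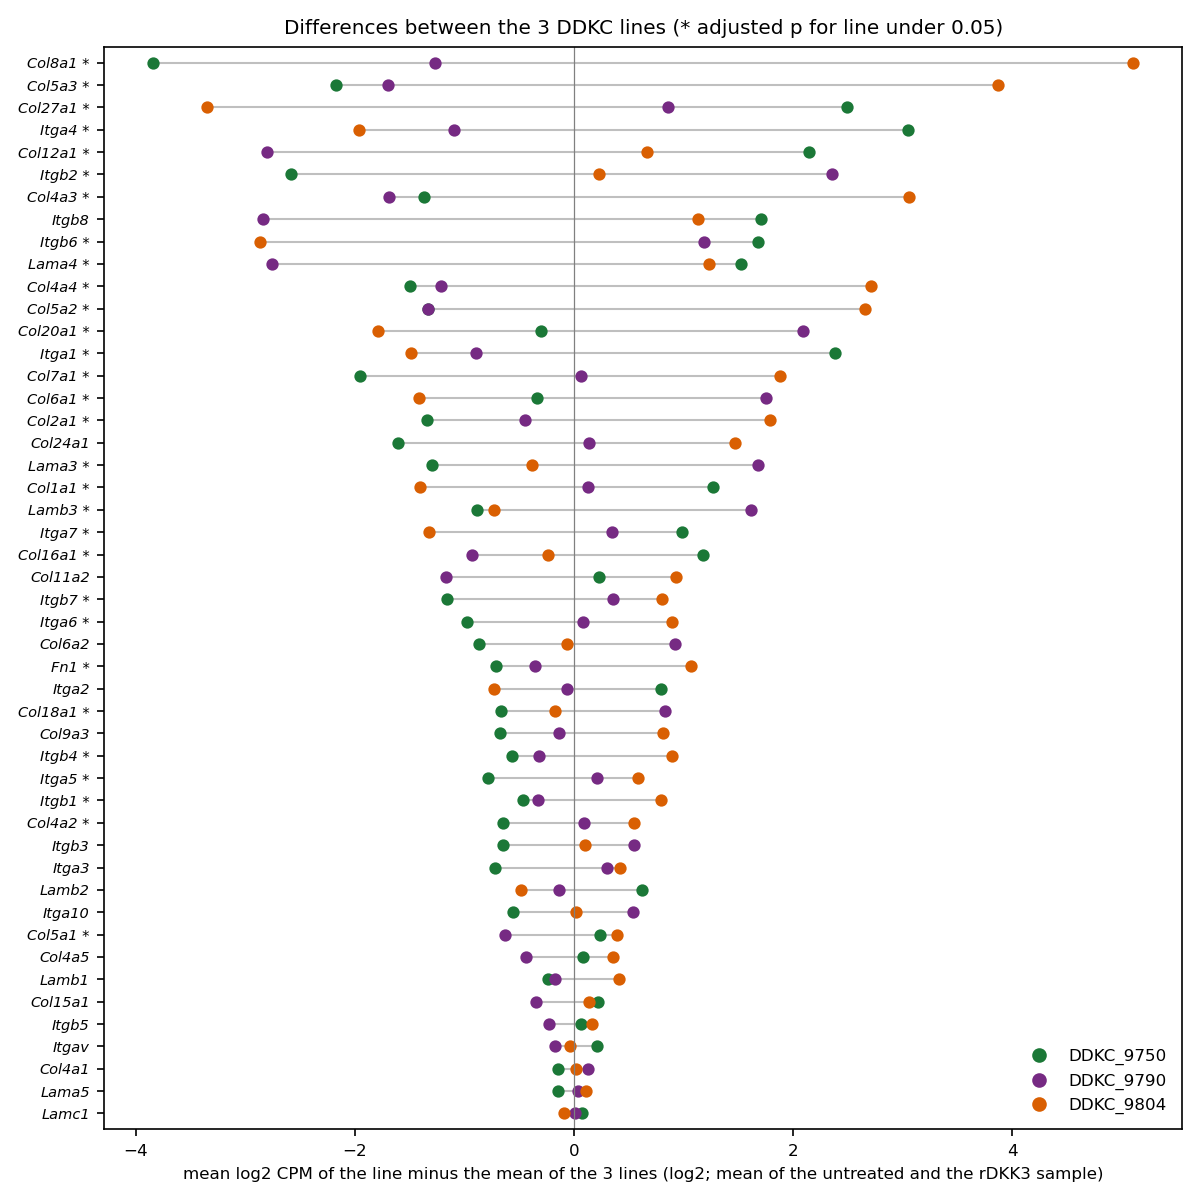
Mean log2 CPM of each line minus the mean of the 3 lines for 48 tested members, sorted by range; each line mean is over its untreated and its rDKK3 sample, and an asterisk marks an adjusted p for line under 0.05. Col8a1 spans 8.94 on the log2 scale at the top, and Lamc1 spans 0.16 at the bottom.

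Col8a1 (ENSMUSG00000068196.6, chromosome 16 of GRCm39, 57444621 to 57575100), a short-chain collagen of vessel walls and the corneal basement membrane, showed the widest range. It measured 1.23 and 0.583 CPM in DDKC_9750, 6.58 and 4.65 in DDKC_9790, and 569 and 377 in DDKC_9804. DDKC_9804 exceeded DDKC_9750 by 462-fold in untreated and 647-fold in treated cells (adjusted p for line 0.000507, edgeR). The DDKC_9750 values in these ratios rest on 37 and 6 counts, so the ratios are imprecise. Its upstream sequence with 4 GC boxes is given above. Col5a3, a minor type V chain, had 0 or 2 counts in the samples of the other 2 lines. In DDKC_9804 it had 176 and 88 counts, 5.02 and 7.23 CPM. It thus passed the filter through DDKC_9804 alone, so its p for line is not read. Col5a2, which lies 24614 bases from Col3a1 on chromosome 1, was likewise counted in DDKC_9804 alone, with 67 and 12 counts.

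Of the collagens that follow, all but Col5a1 were highest in another line. Col27a1, a fibrillar collagen of cartilage, measured 47.7 and 60.5 CPM in DDKC_9750, 16.8 and 17.7 in DDKC_9790, and 2.03 and 0.329 in DDKC_9804 (adjusted p 0.00915, edgeR). Col12a1, a fibril-associated collagen, measured 71.0 and 74.1, 1.98 and 2.596, and 65.5 and 10.3 CPM, low in DDKC_9790 (adjusted p 0.0231, edgeR). Col20a1, of the same class, was the reverse with 4.85 and 5.05, 19.99 and 35.0, and 0.998 and 2.87 CPM (adjusted p 0.00596, edgeR). Col18a1 and Col16a1 also differed (adjusted p 0.0105 and 0.0441, edgeR). With DDKC_9790 left out, the adjusted p for line was 0.28 for Col12a1, 0.149 for Col20a1, 0.277 for Col18a1 and 0.189 for Col16a1, so these calls rest on that line. The call of Col5a1 (adjusted p 0.0418, edgeR) was also lost without DDKC_9790, at 0.753. For each call described here as lost without a line, the value without that line was the highest of its 10 alternatives.

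Lama3 and Lamb3 differed between lines, with adjusted p of 0.0136 and 0.0121 (edgeR). Without DDKC_9790 these became 0.355 and 0.659. None of the laminin-511 chains was called in edgeR's test on the summed samples, with 0.346 for Lama5, 0.105 for Lamb1 and 0.747 for Lamc1. DESeq2 called Lamb1 (0.0447), which also reached 0.0483 in edgeR with DDKC_9750 left out and ran from 0.00144 to 0.778 over its alternatives. Lama5 ran from 0.00711 with the 12 libraries as separate samples to 0.86.

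Of the integrins, Itgb2, the beta subunit of leukocyte integrins, measured 0.698 and 0.68, 24.7 and 22.9, and 3.19 and 9.12 CPM (adjusted p for line 0.00745, edgeR). Itgb6, the epithelial beta subunit that activates latent TGF-beta together with Itgav, measured 11.4 and 2.43, 4.99 and 2.81, and 0.114 and 0.164 CPM, with 4 and 2 counts in DDKC_9804 (adjusted p 0.0113, and 0.319 without DDKC_9804, edgeR). Itga4 had at most 7 counts in a sample of DDKC_9790 and DDKC_9804. It thus passed the filter through DDKC_9750 alone, so its p for line is not read. Itgb1, Itgb4 and Fn1 were called through DDKC_9804: their adjusted p of 0.0116, 0.0115 and 0.00426 became 0.482, 0.362 and 0.126 when it was left out (edgeR). Itga6 was called with all lines (0.0149) and its adjusted p stayed at or under 0.0352 in every alternative run. The call of Itga5 (0.0247) was lost without DDKC_9750 (0.225). Itga3 (0.0762), Itga2 (0.184) and Itgav (0.406) did not pass, though Itga2 did with DDKC_9804 left out (0.0173, edgeR), with 0.0142 to 0.351 over its alternatives. The adjusted p of Itga3 was 0.00493 in DESeq2 and lay between 0.000968 and 0.695 over its alternatives.

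Neighbouring genes offer a view of shared and separate variation. Col4a3 and Col4a4, which encode type IV chains of the kidney and lung basement membranes, lie head to head on chromosome 1 with 71 bases between their starts, the stretch shown above. Col4a3 had 2 and 4, 1 and 5, and 217 and 68 counts, and Col4a4 had 4 and 3, 3 and 9, and 209 and 58. Both were thus counted almost only in DDKC_9804, at 6.19 and 5.58 CPM for Col4a3 and 5.96 and 4.76 CPM for Col4a4. Col4a1 and Col4a2 also lie head to head, on chromosome 8, with gene spans that overlap by 22 bases. They did not move as one: per kilobase, Col4a1 exceeded Col4a2 by 2.53 and 2.52 times in DDKC_9750, 1.94 and 1.74 times in DDKC_9790, and 1.39 and 1.11 times in DDKC_9804. The range between line means was 0.27 for Col4a1 and 1.195 for Col4a2 on the log2 scale. Col6a1 and Col6a2, chains of type VI collagen 85161 bases apart on chromosome 10, had a ratio per kilobase between 8.31 and 52.7, while Col6a3, the remaining classical chain, stayed within 19 counts. Itga2 and Itga1, 20995 bases apart on chromosome 13, were both highest in DDKC_9750, where Itga1 reached 24.7 and 50.2 CPM.

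The second comparison asked what rDKK3 changed, over 3 untreated against 3 treated samples with the line as block. No member passed: 0 of 49 had an adjusted p under 0.05 in edgeR's quasi-likelihood test, beside 1 of 15165 genes (0.00659%). Unadjusted p-values under 0.05 were found for 3 higher members (Col7a1, Col2a1 and Itga5), where 3.38% of all genes were higher, and for 3 lower members (Col8a1, Itgb6 and Itgb4), where 5.16% were lower. Col2a1 had 4.96 and 4.92 CPM in the treated libraries of DDKC_9804 and at most 0.56 CPM in any other library. It thus passed the filter through the group in which it is high, and its p is not read. The median log2 fold change of the tested members was 0.0067, and that of all genes was -0.0054. In DESeq2 on the same samples 1 member passed, Col7a1, and 0.759% of the genes given an adjusted p. When the 12 libraries were taken as separate samples, 6 members were called higher (background 7.95%) and 6 lower (10.1%). That fit takes paired libraries as independent, which the repeat check does not bear out.

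**Figure D4:**
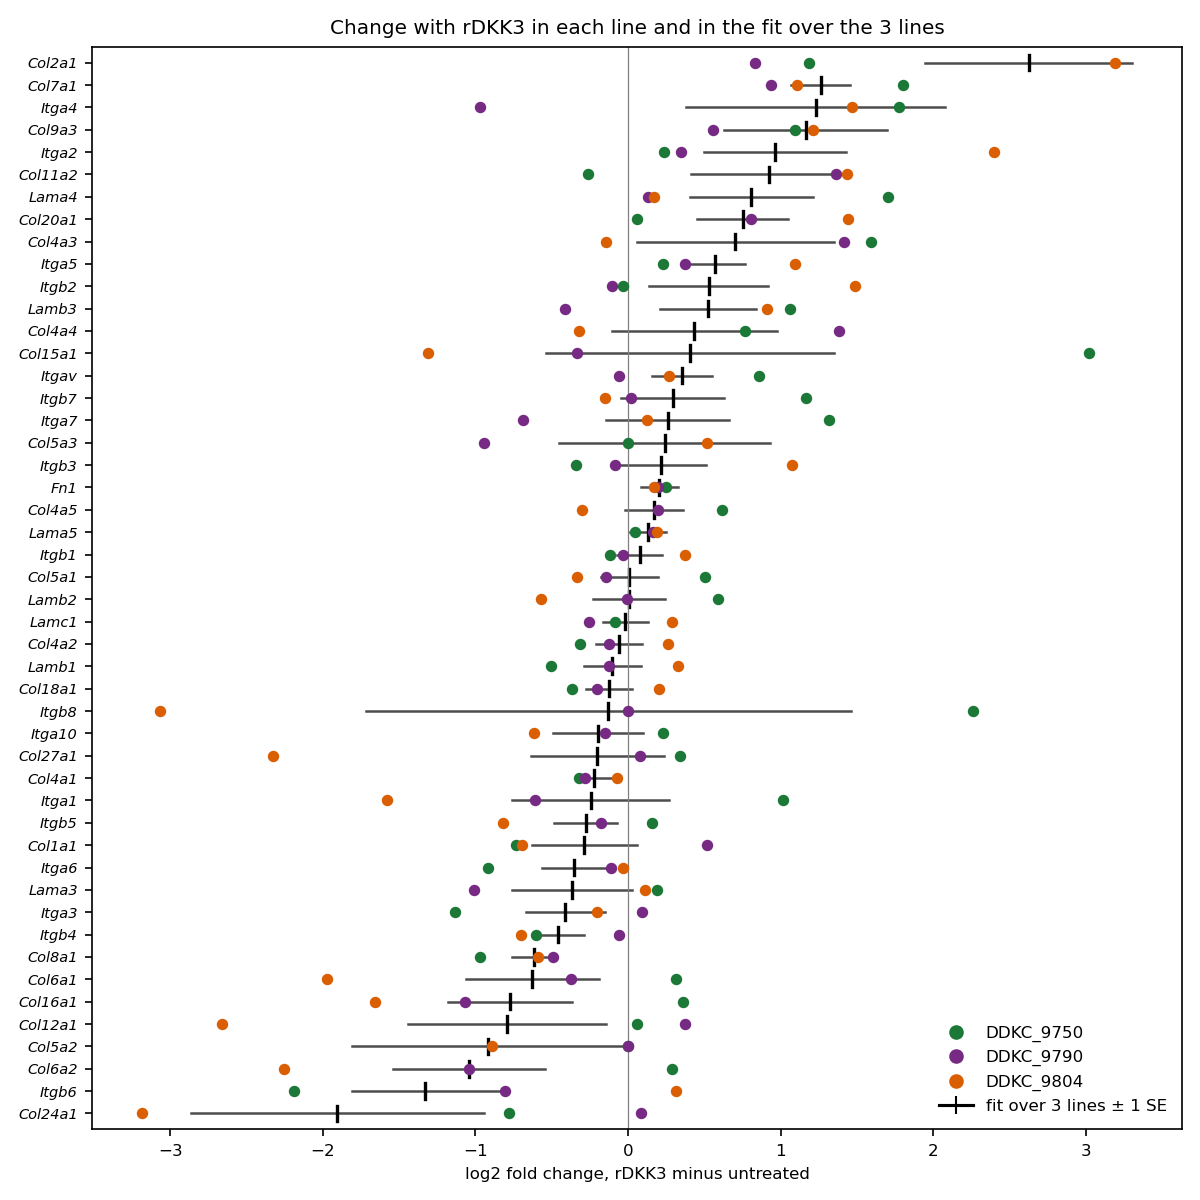
Log2 fold change with rDKK3 for 48 tested members, sorted by the fit over the 3 lines (black tick, with a bar of 1 standard error); coloured points give the change in each line. The 3 points of Col7a1, near the top, lie to the right of 0, between 0.94 and 1.81, and for many others the points fall on both sides of 0.

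Col7a1 (ENSMUSG00000025650.14, chromosome 9 of GRCm39, 108782654 to 108813943), the anchoring fibril collagen, was higher with rDKK3 in every line. It measured 5.85 and 20.7 CPM in DDKC_9750, 32.3 and 62.0 in DDKC_9790, and 108 and 232 in DDKC_9804. In single libraries the untreated values were 5.34 and 6.24, 29.1 and 33.7, and 106 and 109 CPM, and the treated values 21.1 and 20.4, 59.5 and 63.1, and 222 and 239 CPM, so treated and untreated libraries of a line never overlapped. The lines themselves differed more than the conditions, and the treated value of each line lay below the untreated value of the next (adjusted p for line 0.00301, edgeR). The log2 fold change was 1.26 (standard error 0.19), with 1.81, 0.94 and 1.11 in the 3 lines. Its p was 0.00106 before and 0.578 after adjustment in edgeR's test, and 8.54e-05 after adjustment in DESeq2. Over 12 alternatives the adjusted p ran from 8.54e-05 to 1, the highest with no replicate block. The log2 fold change was between 1.04 and 1.46 with any 1 line left out.

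Itga5, whose product pairs with beta1 as the classical fibronectin receptor, measured 59.6 and 69.8, 113 and 147, and 114 and 244 CPM, with a log2 fold change of 0.57 (standard error 0.20, p 0.0314 before and 0.578 after adjustment in edgeR's test). The change was 1.10 on the log2 scale in DDKC_9804 against 0.23 and 0.38 in DDKC_9750 and DDKC_9790. Its ligand gene Fn1 had a smaller log2 fold change of 0.21 (standard error 0.12, adjusted p 0.663, edgeR), nearly the same in the 3 lines at 0.25, 0.20 and 0.17. Itga2 showed 0.96 (standard error 0.47, adjusted p 0.624, edgeR), made of 0.23, 0.35 and 2.40, and without DDKC_9804 it was 0.29. Col20a1 showed 0.75 (standard error 0.30, adjusted p 0.587, edgeR), made of 0.056, 0.80 and 1.44. With a line left out it lay between 0.48 and 1.06. The value of Col2a1, the cartilage collagen, rested on few counts, with 1 and 2, 4 and 7, and 16 and 60. Its counts in DDKC_9750 lie below the floor of 3.

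On the lower side, Col8a1 had a log2 fold change of -0.62 (standard error 0.15, p 0.00734 before and 0.578 after adjustment in edgeR's test), at -0.97, -0.49 and -0.59 in the 3 lines. Itgb4 had -0.46 (standard error 0.17, p 0.0388 before and 0.582 after adjustment, edgeR), with -0.61, -0.06 and -0.70. Its partner Itga6 had -0.35 (standard error 0.21, adjusted p 0.661, edgeR), most of it from -0.92 in DDKC_9750. Itgb6 had -1.33 (standard error 0.48, adjusted p 0.58, edgeR), made of -2.19 in DDKC_9750, -0.81 in DDKC_9790 and 0.31 on 4 and 2 counts in DDKC_9804, and lay between -1.70 and -0.65 with a line left out. Col6a2 had -1.04 (standard error 0.50, adjusted p 0.621, edgeR), with 0.29 in DDKC_9750 and -2.26 in DDKC_9804.

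**Figure D5:**
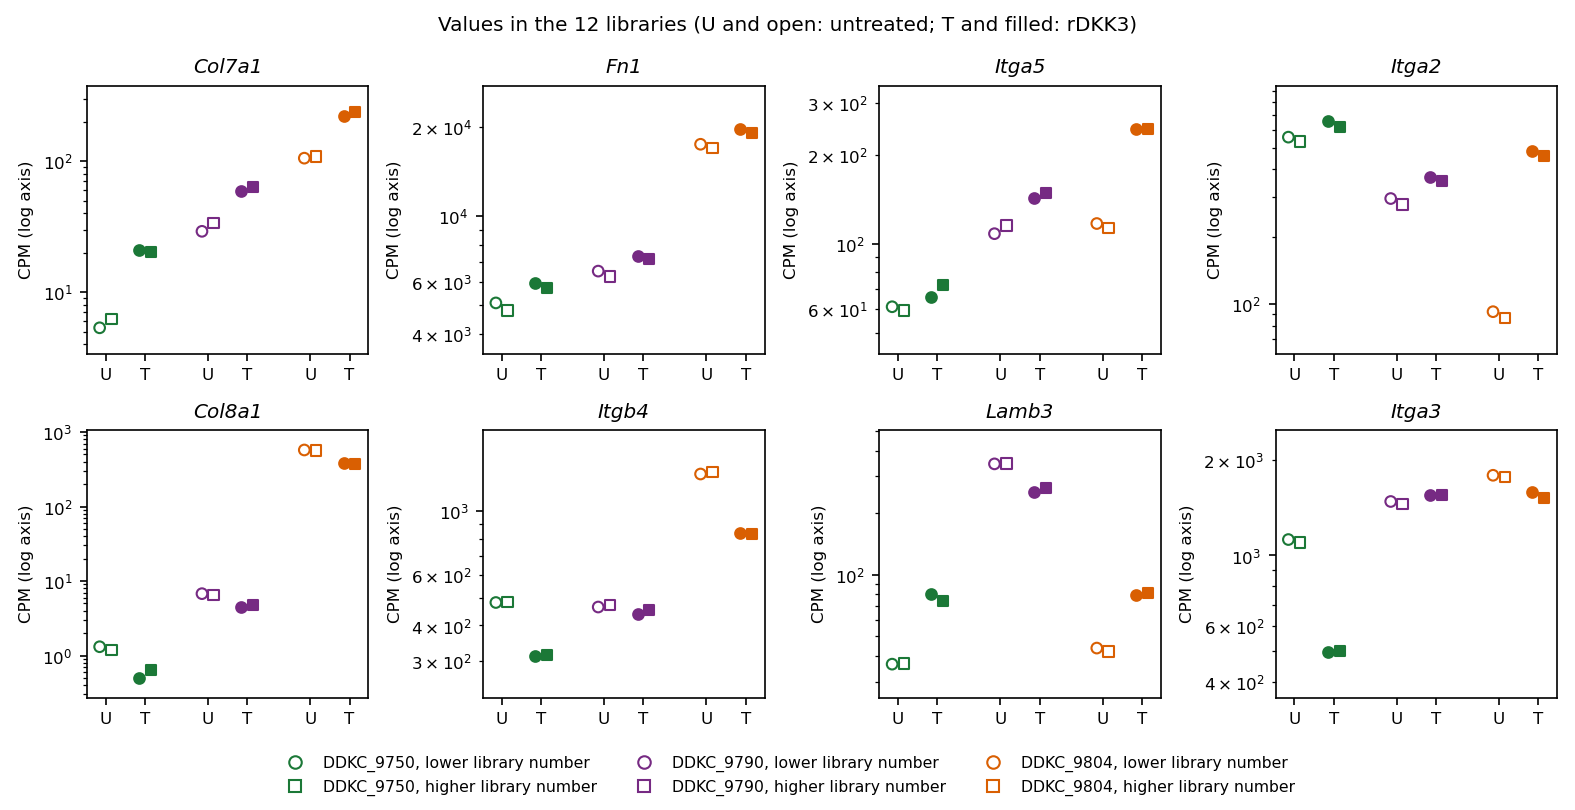
CPM of 8 members in the 12 libraries on log axes, with untreated (U, open) and rDKK3-treated (T, filled) libraries of each line; circles and squares mark the lower and the higher library number. Both libraries of a line and condition lie close together for each gene shown, Col7a1, Fn1, Itga5 and Itga2 are higher in treated libraries of every line, Col8a1 and Itgb4 lower, and Lamb3 and Itga3 change direction between lines.

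Agreement over lines was looked at next. In the summed samples 9 members were higher in all 3 lines (14.2% of all genes were) and 4 lower (18.1%). The 9 include Col2a1, with 1 and 2 counts in DDKC_9750, and Col9a3, with 4 and 4 there and 7 and 9 in DDKC_9790. The directions of both genes in these samples thus rest on few counts. In 6 members, Col7a1, Lama4, Lama5, Fn1, Itga2 and Itga5, both treated libraries were above both untreated ones in every line (5.33% of all genes), and in 3, Col8a1, Itga6 and Itgb4, below (8.51%). For Lama4 the separation in DDKC_9790 rests on 9 and 8 summed counts, and in DDKC_9804 the nearest libraries were at 7.64 and 7.71 CPM. Within single lines the libraries separated far more often. In DDKC_9750 treated libraries were above the untreated ones for 25 members (32.5% of all genes) and below for 15 (35.2%). In DDKC_9790 these counts were 15 (30.4%) and 23 (31.2%), and in DDKC_9804 22 (32.0%) and 22 (39.3%). For 27 of 49 members the libraries separated upward in 1 line and downward in another, as they did for 37.8% of all genes. Since both libraries of a line and condition agreed within sampling noise, these separations compare single samples and not lines in general.

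The test of a line-dependent response over the 12 libraries called 43 of 49 members (87.8%), beside 61.9% of all genes. Its error is the spread between the 2 libraries of a line and condition, which agreed within sampling noise, so it also compares these samples and not lines in general. The smallest adjusted p was that of Itga2 (1.26e-167, edgeR), whose level in DDKC_9804 was 92.6 and 86.6 CPM in the untreated and 483 and 457 CPM in the treated libraries. Itga3 followed (2.08e-133, edgeR), with 1122 and 1096 CPM in untreated against 496 and 503 CPM in treated libraries of DDKC_9750 and a change of 0.09 on the log2 scale in DDKC_9790. The laminin beta chain gene Lamb3 was 1.06 and 0.91 higher on the log2 scale in treated DDKC_9750 and DDKC_9804 and changed by -0.41 in DDKC_9790. In DDKC_9804, Col12a1 changed by -2.66 and Col27a1 by -2.33 on the log2 scale. For Col8a1, with 37 and 6 counts in DDKC_9750, the interaction did not pass (adjusted p 0.707, edgeR), which does not show that its changes of -0.97, -0.49 and -0.59 are alike. The adjusted p of Fn1 was 0.0013 (edgeR), with changes that nevertheless all lay between 0.17 and 0.25.

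Genes that act on or beside these proteins were counted from lists chosen with earlier results of these data known. A gene of these lists could also pass the filter through a single line in which it is high. The shares differing between lines thus describe the tested genes and are not read as a property of a list. Of 28 genes for collagen synthesis and cross-linking, 26 were tested. None passed for rDKK3 in the summed samples, 5 were lower and 0 higher at an unadjusted p under 0.05 (5.16% and 3.38% of all genes), and 9 were lower and 0 higher in all 3 lines (18.1% and 14.2% of all genes). Their median log2 fold change was -0.14 against -0.0054 for all genes, with medians of 0.091 in DDKC_9750, -0.32 in DDKC_9790 and -0.33 in DDKC_9804. Plod2, a lysyl hydroxylase that prepares collagen for cross-linking, measured 68.7 and 55.0, 111 and 72.7, and 75.7 and 43.4 CPM (log2 fold change -0.58, standard error 0.13, p 0.00667 before and 0.578 after adjustment, edgeR). Loxl4, a lysyl oxidase, measured 21.01 and 8.45, 70.6 and 48.1, and 63.0 and 48.3 CPM (log2 fold change -0.72, adjusted p 0.578, edgeR). Between lines 13 of the 26 (50%) differed, beside 35.3% of all genes. Adamts2, which removes the N-terminal propeptide of collagen, had the widest range, with 11.2 and 21.7, 0.172 and 0.162, and 25.7 and 22.6 CPM. Its DDKC_9790 values are 4 and 3 counts, next to or at the floor of 3, so the width of this range is imprecise.

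The 25 tested focal adhesion and hemidesmosome partners had a median log2 fold change of 0.085, with 0 called for rDKK3 and 12 (48%) differing between lines, beside 35.3% of all genes. Tns3, a tensin that links integrin tails to actin, measured 232 and 326, 131 and 151, and 196 and 251 CPM (log2 fold change 0.35, adjusted p 0.578, edgeR), and Ilk, the pseudokinase of the adhesion complex, 201 and 164, 92.6 and 78.2, and 145 and 126 CPM (log2 fold change -0.25, adjusted p 0.589, edgeR). Tns1 varied most between lines, with 165 and 154, 167 and 227, and 19.7 and 16.0 CPM. Of 11 tested genes for other basement membrane components, 9 (81.8%) differed between lines, against the same 35.3%. Among those called, Tinag had 106 and 39 counts in DDKC_9750 and at most 7 in any other sample. Smoc1 had 841 and 179 counts in DDKC_9804 and at most 18 in any other sample. Smoc2, a calcium-binding matrix protein, had 0 CPM in DDKC_9750, 0.516 and 1.24 in DDKC_9790, and 160 and 328 in DDKC_9804, with a log2 fold change of 1.08 (p 0.00274 before and 0.578 after adjustment, edgeR). That change rests mostly on DDKC_9804, with 5623 and 3991 counts against 12 and 23 in DDKC_9790 and 0 in DDKC_9750. Npnt, the ligand of integrin alpha8 beta1, measured 490 and 124, 788 and 590, and 1207 and 720 CPM (log2 fold change -1.04, adjusted p 0.578, edgeR) in cells whose Itga8 was at 1 count. Among 9 tested receptors other than integrins, 6 (66.7%) differed between lines, again beside 35.3%, and 1, Hmmr, was lower at an unadjusted p under 0.05 for rDKK3, as 5.16% of all genes were (log2 fold change -0.71, adjusted p 0.578, edgeR). Bcam, a receptor of Lama5-containing laminins, measured 586 and 554, 445 and 364, and 318 and 138 CPM. The syndecan Sdc3 had the widest range, with 23.8 and 12.5, 54.6 and 61.8, and 154 and 158 CPM.

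Markers were read beside these values to check the labelled cell type. All 6 epithelial markers were above the floor, and their summed level was 5573 and 3946, 9668 and 7949, and 5032 and 3854 CPM, lower in the treated sample of each line. The keratins carried this sum, while Cdh1 measured 786 and 1048, 654 and 604, and 310 and 354 CPM, and Epcam stayed between 0.411 and 2.04 CPM. The summed level of the 9 fibroblast and stellate markers was 40.0 and 132, 6.11 and 7.30, and 5.82 and 5.09 CPM. In DDKC_9750 most of it was Acta2 (38.1 and 127 CPM), and Pdpn measured 0.266 and 4.27 CPM there and at most 0.0541 CPM in the other lines. Pdgfra measured 1.70 and 0.68, 5.76 and 6.98, and 0.827 and 4.27 CPM, and Pdgfrb reached 4.33 CPM in untreated DDKC_9804 and at most 0.493 CPM elsewhere. Of the remaining 5 markers, Des had at most 0.329 CPM, Dcn, Lum and Thy1 at most 0.0971 CPM, and Fap was at 0. Those for endothelium summed to between 0.971 and 17.5 CPM, nearly all Kdr, and those for immune cells to between 9.54 and 46.1 CPM, from Cd68 and Csf1r with Ptprc at or under 0.0971 CPM. The part of any such cells in the results was not tested. In these bulk samples, fewer cells of a kind and less RNA per cell cannot be told apart.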

How the data were processed

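Per the study's methods, the authors prepared strand-specific libraries, aligned the reads to GRCm39 with STAR 2.7.9a on GENCODE genes and counted them per gene with strand. The deposited values are raw counts without normalization, and all 57278 genes of the 12 libraries were read. The 2 libraries of a line and condition were compared over 12979 genes (mean deviance per degree of freedom 0.765 with a shift between library number series, 6.39 without) and then summed. Treated and untreated samples were paired by the line named in the labels, and samples of 1 line deviated together (correlation across genes, r = 0.822, 0.874 and 0.805).

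Low-count genes were removed with filterByExpr, given the 6 combinations of line and condition, and the rest tested with edgeR 4.0.16 (R 4.3.3) by the quasi-likelihood test with TMM scaling, Benjamini-Hochberg adjustment over 15165 genes and a threshold of 0.05. Line and treatment were in the model. The line-dependent response used the 12 libraries with line, treatment, their interaction and library series. Log2 CPM used a prior count of 2. Exon lengths came from GENCODE M39. DESeq2 1.42.0, RLE scaling, no filter, thinning, single library series, 12 separate libraries, no line block and leaving out each line were alternatives. The tests were also tried on simulated data, and no result of that is used here. By rule the text names Fn1, Itgb1, Lama3, Lamb3, the laminin-511 chains and Itga6 with Itgb4; the highest member of each role per kilobase; the 4 higher and 4 lower members with the smallest p for rDKK3; and the 6 with the widest range over lines. In each list of other genes it names the 2 with the smallest p and the 1 with the widest range. Members named beside these were chosen after their values were seen. Of the tested members 1 is counted but not reported or drawn here, nor is a further allele that all groups share. The members and lists were chosen with earlier results of these data known.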

Additional observations from a re-analysis of the deposited data

Results flagged for a closer look

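In 24 of the members named by rule the rDKK3 response differed between lines in the test over 12 libraries, whose error is that between the 2 libraries of a line and condition and whose background is 61.9% of all genes. The adjusted p (edgeR's quasi-likelihood test of the interaction, Benjamini-Hochberg) was 1.26e-167 for Itga2, 2.08e-133 for Itga3, 2.9e-88 for Lamb3, 2.14e-80 for Itga6, 1.16e-77 for Itgav, 3.85e-75 for Col12a1, 9.36e-70 for Lamb1, 5.3e-64 for Itgb4 and 1.33e-61 for Itgb1. It was 3.98e-47 for Col18a1, 3.91e-45 for Itga5, 4.03e-44 for Col16a1, 3.84e-42 for Lamc1 and 1.37e-32 for Col5a1. Larger adjusted p-values, which also depend on the counts of a gene, were those of Itgb2 (3.63e-12), Lama5 (5.82e-09), Col6a2 (1.03e-08), Col27a1 (5.25e-07), Col7a1 (1.55e-06), Itgb6 (0.00068), Col20a1 (0.00125), Fn1 (0.0013), Itga4 (0.00403) and Lama3 (0.0486). Itga4 passed the filter through DDKC_9750 alone and had at most 7 counts in a sample of the other lines. Its p here is therefore not read either. In Col7a1, Fn1, Lama5, Itga5 and Itga2 the treated libraries were above the untreated ones in all 3 lines, and in Itga6 and Itgb4 below, with changes of 1.81, 0.94 and 1.11 for Col7a1 on the log2 scale. In Col12a1 and Itgb2 the difference lay in DDKC_9804, with -2.66 against 0.06 and 0.38 for Col12a1 and 1.49 against -0.03 and -0.11 for Itgb2. Itgav was 0.86 higher on the log2 scale in treated DDKC_9750 and changed by -0.06 and 0.27 in the other lines.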

How the results depend on the processing

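No member was called for rDKK3 in the main test, with RLE scaling, with counts thinned to equal depth, in either library series alone, with no replicate block (the line left out of the model) or with any line left out (0 to 0). DESeq2 called 1 (2.63% of the members given an adjusted p) and the fit without a filter 1, in both Col7a1. With the 12 libraries as separate samples 12 were called, and 14 with the library series added. Over all genes the count of 1 became 95 in DESeq2, 90 without a filter, 6 with the lower-numbered libraries, 2744 with 12 libraries, 3124 with the series, 0 with no replicate block and 0 to 2 with a line left out. The 31 members differing between lines became 21 to 30 with a line left out, and 30 to 45 otherwise. Over all genes 5348 became 11790 with 12 libraries and 1540 without DDKC_9790. The 43 line-dependent members became 40 with no library series in the model, 43 with RLE scaling and 41 without a filter. Over all genes the 9388 became 7474, 9332 and 8962 in the same order. Signs of some log2 fold changes turned, and the cause was not tested: Lamb3 to -0.026 and Col27a1 to 0.24 with no replicate block, Col27a1 to 0.0093 with the series, Lamc1 to 0.0040 with thinning, Col5a3 to -0.33 in DESeq2, and Col5a1 to -0.037 without a filter, -0.070 in the lower series, -0.0076 with 12 libraries and -0.0098 with the series. With a line left out they ranged from -0.074 to 0.18 (Itgb1), -0.66 to 0.17 (Lama3), -0.32 to 0.11 (Lamb1), -0.17 to 0.11 (Lamc1), -0.23 to 0.18 (Col5a1), -0.29 to 0.0059 (Col18a1), -0.039 to 2.08 (Itga4), -3.30 to 0.53 (Col5a3), -0.60 to 0.21 (Col27a1), -1.46 to 0.18 (Col12a1) and -0.090 to 0.92 (Itgb2). Depth limits what is said of members under 3 counts in a sample.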

Other observations

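Itgb8, which pairs with Itgav, had 27 and 48 counts in DDKC_9750, 0 and 0 in DDKC_9790, and 145 and 5 in DDKC_9804, so its level went up in 1 line (log2 change 2.26) and down in another (-3.07). Col15a1, a basement membrane collagen, behaved alike in direction, with 1.06 and 9.32 CPM in DDKC_9750 and 4.82 and 1.89 CPM in DDKC_9804. Col24a1 went from 105 to 3 counts in DDKC_9804 while that sample's total fell from 36140718 to 12214580. These genes were chosen after their values were seen.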
